A study of Mus musculus with 37 samples.

Results

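Poly(A)-binding proteins and the proteins that act on them are described here through 7 mouse genes, Pabpc1, Pabpc1l, Pabpc4, Pabpn1l, Paip1, Paip2 and Paip2b. They were taken by symbol, without regard to a threshold on any value, and are 7 of the 54752 genes in the expression tables and, at the level of isoforms, 39 of the 138835 transcripts. All 7 genes passed the filter on low counts in both comparisons.

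Messenger RNAs carry a poly(A) tail that is coated by poly(A)-binding proteins. In the cytoplasm these proteins contact the cap-binding complex and so favour translation, and they also meet the enzymes that shorten the tail. A fully grown oocyte makes almost no new RNA, so during meiosis the use and the loss of stored messages depend largely on lengthening and shortening of their tails.

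The study sequenced RNA from 37 single oocytes of C57BL/6 females aged 6 to 8 weeks with the Smart-seq2 protocol, which copies RNA from the poly(A) tail, so a level below is that of captured polyadenylated RNA. Germinal vesicle (GV) oocytes were collected 48 h after 5 IU of PMSG. MI oocytes were cultured for 8 h in M16 medium, and MII oocytes came from the ampulla 15 h after 5 IU of hCG that followed PMSG. Batch A held 6 GV and 6 MII oocytes and batch B held 10 GV and 15 MI oocytes, so MI and MII never shared a batch and, between them, stage and batch cannot be told apart. The labels do not say from how many females the oocytes came, so each p-value below measures only the spread between oocytes.

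The total of expected counts per oocyte ran from 7509875 to 12648629 in GV of batch A, from 9930485 to 13988444 in MII, from 7184205 to 17724506 in GV of batch B and from 2709280 to 19390128 in MI. The number of genes detected was 29518 in MII oocyte 1, and at most 22244 in the rest of its group. The shallowest library was that of MI oocyte 15. In MI oocytes 4, 8 and 9 the deposited HTSeq counts were low beside the RSEM counts of the same genes, with a median ratio of 1.13, 1.11 and 1.07 against a group median of 2.07.

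The oocyte label was checked on 10 oocyte genes, of which 10 were tested in each batch. Their summed level had a median of 13009.5 CPM (counts per 1000000 counts) in GV of batch A, 6918 in MII, 4178 in GV of batch B and 3661 in MI, and Gdf9 had the highest mean of the list in each group. Of the 10 genes 5 were lower in MII (Zp1, Zp2, Zp3, Ooep and Nlrp5, adjusted p from 1.05e-05 to 0.0266) and 0 were higher; of all genes tested 11.5% were lower and 9.06% were higher. The 12 cumulus and granulosa genes summed to between 10.7 and 41.2 CPM in every oocyte, with medians of 30.7 in GV and 20.2 in MII of batch A and 20.7 in GV and 19.4 in MI of batch B, Cyp19a1 being the most abundant in each group by its mean, and Foxl2, Amh, Amhr2 and Ptx3 were at 0 in all oocytes of batch B. The 6 blood and immune genes summed to at most 0.579 CPM in GV of batch A and 7.88 CPM in batch B, and reached 12.0 CPM in MII oocyte 1, where Hba-a1 led. Apart from Cyp19a1 the cumulus and granulosa sum had a median of 16.6 CPM in GV and 4.92 CPM in MII of batch A, without a test of this sum. Results of batch A for the 7 genes are also given without MII oocyte 1 where that changed a call. The same fit was read for the genes of the other lists after the data were seen: Nlrp5 no longer passed (adjusted p 0.0537), Cyp11a1 of the cumulus and granulosa list entered the test and was lower in MII (-2.32, adjusted p 0.0236), and no other call of a listed gene changed.

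Levels of different genes were compared as TPM, the same unit after division by transcript length, summed over all transcripts of a gene. Short forms, coding or not, therefore weigh heavily in it. In GV of batch A the retained introns Paip2b-202 and Paip2b-204 (537 and 649 bases) held 14.6% and 9.08% of Paip2b counts. Pabpc1l-202, a processed transcript of 750 bases, held 31.5% of Pabpc1l counts. TPM of coding forms alone was not computed, so the order below is not one of coding messages. In GV oocytes of batch A the median TPM was 972 for Paip1, 458 for Paip2b, 335 for Paip2, 165 for Pabpc4, 160 for Pabpc1l, 70.5 for Pabpn1l and 8.97 for Pabpc1. The median TPM of MII oocytes followed the same order, from 991 for Paip1 to 2.35 for Pabpc1. In both batches Paip1 was above Paip2b, and Pabpc1 was the lowest of the 7, in every oocyte.

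Neighbours in that order were not always separate. Among GV oocytes of batch A, 4 of 6 had more TPM of Paip2b than of Paip2, and 4 of 6 had more of Pabpc4 than of Pabpc1l; in MII these orders held in 6 of 6 and 5 of 6. In batch B the median TPM of GV oocytes was 1853 for Paip1, 564 for Paip2b, 184 for Pabpn1l, 144 for Paip2, 137 for Pabpc4, 49.4 for Pabpc1l and 5.09 for Pabpc1. Paip2 exceeded Pabpc4 in 4 of those 10 oocytes, and Pabpn1l exceeded Pabpc4 in 9 of 15 MI oocytes, so the middle of the order was not resolved.

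Set against all genes with at least 1 TPM, Paip1 lay at the 99.4 percentile in GV of batch A and at the 99.7 percentile in MI. Pabpc1 lay at the 45.3 percentile in GV of batch A and at the 18.3 percentile in MII. The GV oocytes of both batches differed in these levels, with Pabpc1l at 117 to 172 TPM in batch A and at 30.1 to 74.1 TPM in batch B, and Paip2 at 281 to 483 TPM in batch A and at 98.9 to 155 TPM in batch B. No test was run between batches, and the comparisons that follow stay within one.

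**Figure D1:**
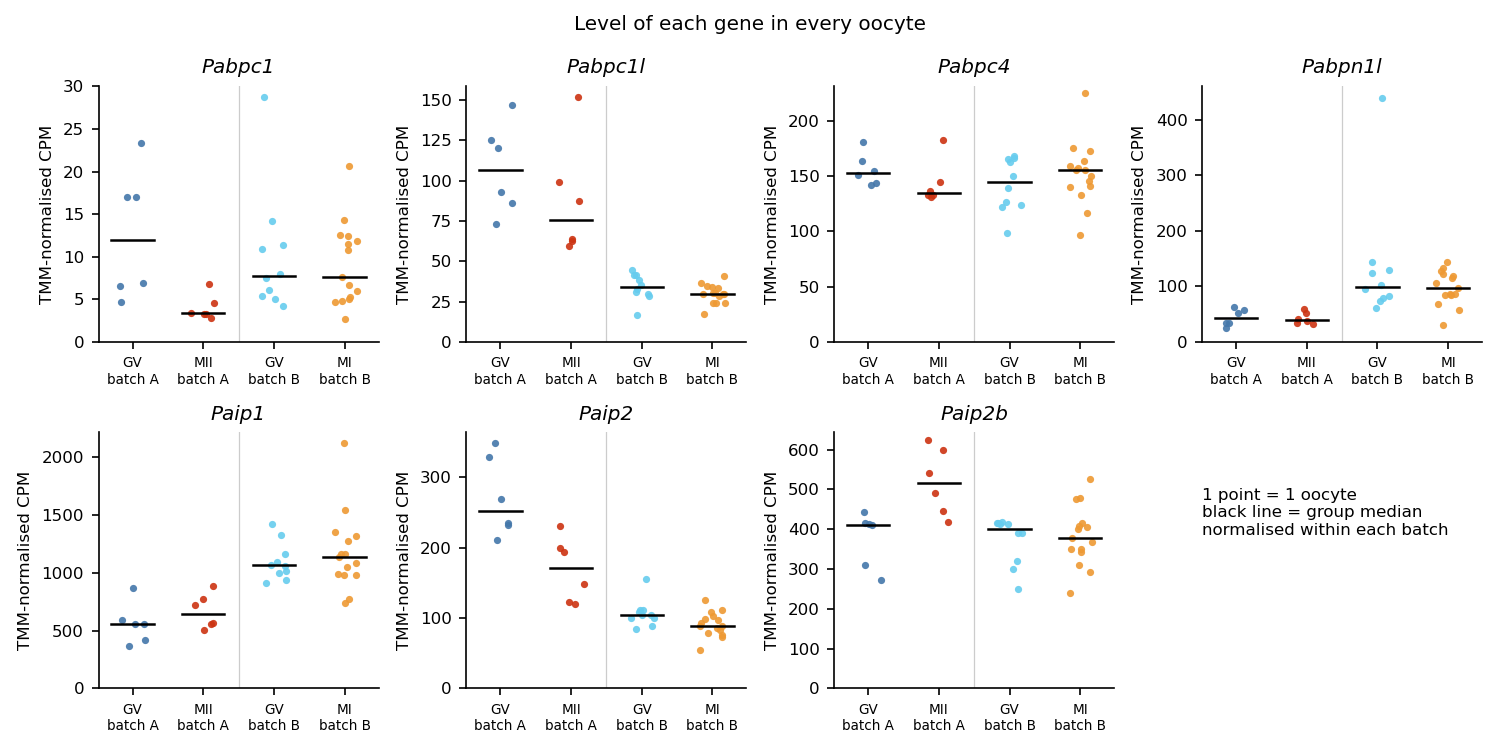
Level of each of the 7 genes in every oocyte, in CPM after TMM normalisation within each batch (vertical axes, linear, from 0), by stage and batch (horizontal axes); points are oocytes and black lines are group medians. Pabpc1 and Paip2 lay lower and Paip2b higher in most MII oocytes than in GV oocytes of batch A, and scaling to spike-ins turned the change of Paip2b from 0.46 to -0.28.

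In batch A, 3 of the 7 genes differed between GV and MII at an adjusted p under 0.05 (edgeR), beside 20.6% of the 12929 genes tested. In the downward direction the count was 2 of 7, Pabpc1 and Paip2, beside 11.5%; the third, Paip2b, was higher in MII with this scaling, and lower and no longer past the threshold when scaled to spike-ins. With a fold change over 2 as well, 1 of 7 was called, Pabpc1, beside 8.47%; with spike-in scaling 5 of 7 were significant and 3 called, Pabpc1, Pabpc1l and Paip2, each downward, beside 5596 and 3919 of all genes. With the cumulus and granulosa sum as a covariate 0 of the 7 were significant in edgeR, beside 593 of all genes. Without the covariate 2662 of all genes were significant. In the covariate fit 1 member, Pabpc1l, had an unadjusted p under 0.05. Pabpc1l (-0.72), Pabpc4 (-0.15), Pabpn1l (-0.30) and Paip1 (0.46) lay farther from 0 in log2 fold change than without the covariate, and Pabpc1, Paip2 and Paip2b nearer. The median log2 fold change of the 7 genes was -0.12 and that of all genes tested was 0.01. In batch B, 0 of the 7 genes differed between GV and MI with edgeR, beside 0.145% of 12419 genes; 0 of them had an unadjusted p under 0.05, and DESeq2 also found 0. The median log2 fold change of the 7 genes was -0.16 there and that of all genes tested was 0.02.

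Of the 92 spike-in RNAs in the tables, batch A held totals of 44663 to 143062 expected counts per oocyte and batch B at most 32. Scaling batch A to these totals moved the median log2 fold change of all genes tested to -0.72. Relative to that median the changes were -1.76 for Pabpc1, -0.29 for Pabpc1l, -0.14 for Pabpc4, 0.01 for Pabpn1l, 0.22 for Paip1, -0.69 for Paip2 and 0.43 for Paip2b. Fold changes and CPM ranges below are from TMM normalisation, which sets the bulk of genes near 0, and are to be read as changes relative to other transcripts. In TPM, a scale chosen for this count after seeing the data, 5 of 6 MII oocytes lay below every GV oocyte of batch A for each of Pabpc1, Pabpc1l, Pabpc4 and Paip2, 1 for Pabpn1l and 0 for Paip1 and Paip2b, and 0 lay above every GV oocyte for any of the 7 genes. The share of all genes with such a separation is not given, here or for the CPM counts below. These counts therefore describe the oocytes and do not set the 7 genes apart from others.

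**Figure D2:**
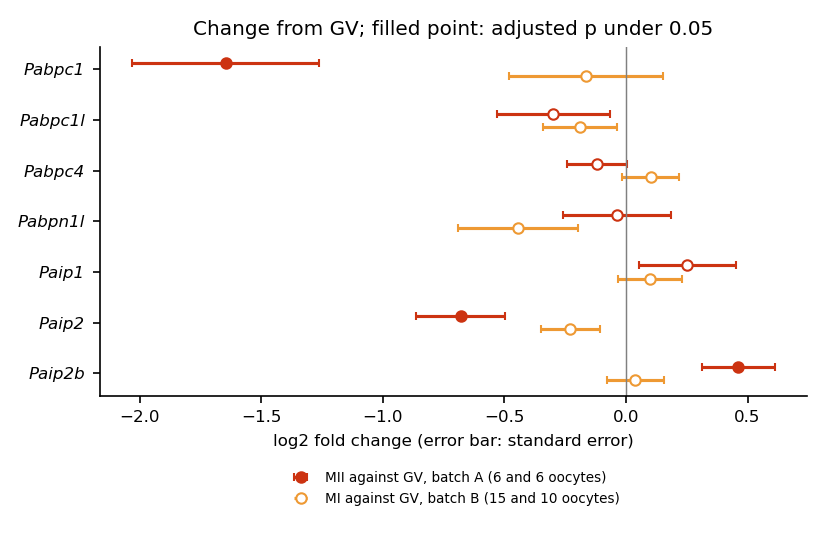
Log2 fold change from GV (horizontal axis) of each gene (vertical axis) with TMM normalisation, for MII in batch A (red) and MI in batch B (orange); bars are standard errors and filled points have an adjusted p under 0.05. The 3 filled points are Pabpc1 (-1.65), Paip2 (-0.68) and Paip2b (0.46); with spike-in scaling the values of Paip1 and Paip2b in batch A are below 0.

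Pabpc1 encodes the poly(A)-binding protein of the cytoplasm of most body cells, which links the tail to the cap through eIF4G. It lies on chromosome 15 (36595661 to 36609668, minus strand, GRCm38). In GV oocytes of batch A its lowest, median and highest levels were 4.66, 12.0 and 23.4 CPM, and in MII oocytes they were 2.77, 3.35 and 6.76 CPM. Of the 6 MII oocytes 5 lay below every GV oocyte, and the remaining one, MII oocyte 2, lay among the lower GV oocytes, so the groups overlapped. The log2 fold change was -1.65 (SE 0.385, adjusted p 0.00724), on a mean of 136 expected counts in GV and 41.1 in MII.

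The fall of Pabpc1 stayed past the threshold when each oocyte of batch A was left out in turn, with log2 fold changes from -1.86 to -1.37. The oocytes with the highest cumulus and granulosa sum in GV of batch A (oocyte 5, 41.2 CPM), MII (oocyte 2, 33.6) and GV of batch B (oocyte 10, 32.3) were also the highest of their groups in Pabpc1, which was not so in MI. Pearson's r of log2 Pabpc1 with that sum was 0.450, 0.935, 0.489 and -0.151 in GV and MII of batch A and GV and MI of batch B. With the sum as a covariate, a fit chosen after seeing the data, the fall of Pabpc1 was -0.87 and no longer past the threshold (adjusted p 0.287). With the sum less Cyp19a1 as covariate it was -0.44 (adjusted p 0.699). The sums were themselves lower in MII (r of the log2 sum with stage -0.681, and -0.768 less Cyp19a1), so these fits cannot separate stage from the sum.

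In batch B the GV oocytes held 4.15, 7.76 and 28.7 CPM and the MI oocytes 2.65, 7.58 and 20.7 CPM as lowest, median and highest. Those ranges overlapped almost fully, and the log2 fold change was -0.16 (SE 0.316, adjusted p 0.907). The change at MII minus the change at MI was -1.40 (SE 0.545, p 0.0139), which did not pass adjustment over 15083 genes (adjusted p 0.139).

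Pabpc1l encodes the embryonic poly(A)-binding protein, the cytoplasmic form known from oocytes and early embryos and needed for oocyte maturation in mice. Its levels in batch A were 73.3, 107 and 147 CPM in GV and 59.7, 75.5 and 152 CPM in MII as lowest, median and highest. Of the MII oocytes 3 lay below and 1 above every GV oocyte, and the log2 fold change of -0.30 with TMM scaling did not pass the test (SE 0.232, adjusted p 0.390). With spike-in scaling it was -1.0 (adjusted p 0.00946) and passed, also at a fold change over 2. For batch B the value was -0.19 (adjusted p 0.695).

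The ratio of Pabpc1l to Pabpc1 within an oocyte does not depend on scaling between oocytes. Per length, its median was 16.9 in GV and 38.8 in MII of batch A, and 9.34 in GV and 6.45 in MI of batch B. Its size depends on Pabpc1l-202, a processed transcript of 750 bases with 31.5% of Pabpc1l counts in GV of batch A. The ratio of the coding forms alone was not computed. In batch A the mean log2 ratio was 1.17 higher in MII (6 and 6 oocytes, two-sided exact permutation test, p 0.0433), with 4 of 6 MII oocytes above every GV oocyte. That p did not hold without MII oocyte 1 (difference 1.09, exact permutation p 0.0779) or with HTSeq counts per exon length (1.25, exact permutation p 0.0736). The difference in batch B was -0.26 (permutation test, p 0.488).

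Pabpc4 encodes a further cytoplasmic poly(A)-binding protein, first found as inducible in activated T cells. It had 142, 153 and 181 CPM in GV and 131, 135 and 183 CPM in MII of batch A as lowest, median and highest. With TMM scaling its log2 fold change was -0.12 (adjusted p 0.521), and with spike-in scaling it was -0.86, past the threshold (adjusted p 0.00719). In CPM 4 MII oocytes lay below every GV oocyte, and the highest value of batch A was also from MII, in oocyte 4. Batch B gave a log2 fold change of 0.10 (SE 0.117, adjusted p 0.823). Without GV oocyte 7 of batch B, a fit added after the data were seen, it was 0.053 (adjusted p 0.963).

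Pabpn1l encodes an oocyte and early embryo relative of the nuclear poly(A)-binding protein, known to help remove maternal messages. Its levels in batch A were 25.6, 42.7 and 61.9 CPM in GV and 32.9, 39.0 and 58.6 CPM in MII, the MII values lying inside the GV range. The log2 fold change was -0.04 with TMM scaling (SE 0.222, adjusted p 0.925) and -0.70, past the threshold, with spike-in scaling (adjusted p 0.0384). The sign of the TMM value turned in 6 of the 12 fits that left out 1 oocyte.

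In batch B Pabpn1l had 61.2, 98.8 and 440 CPM in GV and 29.6, 97.3 and 143 CPM in MI as lowest, median and highest. GV oocyte 7 held the 440 CPM, and the next GV oocyte held 143 CPM. The log2 fold change was -0.44 with all oocytes (SE 0.247, unadjusted p 0.0816, adjusted p 0.525) and -0.02 without GV oocyte 7, a fit added after the data were seen (adjusted p 0.993).

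Paip1 encodes a coactivator that resembles eIF4G and binds poly(A)-binding protein, favouring translation. It was the most abundant of the 7 genes per length. Its levels in batch A were 363, 560 and 866 CPM in GV and 501, 645 and 889 CPM in MII, and the log2 fold change was 0.25 with TMM scaling and -0.50 with spike-in scaling, neither past the test (adjusted p 0.395 and 0.101). In batch B the levels were 912, 1064 and 1419 CPM in GV and 740, 1138 and 2126 CPM in MI, with a log2 fold change of 0.10 (adjusted p 0.854). MI oocyte 15, the shallowest library, held the 2126 CPM, and without it the log2 fold change was 0.013 (adjusted p 0.985).

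Paip2 and Paip2b encode inhibitors that pull poly(A)-binding protein off the tail and away from eIF4G. Paip2, on chromosome 18, had 211, 252 and 349 CPM in GV and 120, 171 and 231 CPM in MII of batch A as lowest, median and highest. Of the MII oocytes 5 of 6 lay below every GV oocyte, and the highest MII oocyte, oocyte 2, fell within the GV range. The log2 fold change was -0.68 (SE 0.184, adjusted p 0.0166) and ran from -0.77 to -0.59 when each oocyte was left out in turn, each time past the threshold. With the cumulus and granulosa sum as a covariate it was -0.28 (adjusted p 0.486), and with that sum less Cyp19a1 it was -0.45 (adjusted p 0.421). Pearson's r of log2 Paip2 with the whole sum was 0.876 in GV and 0.577 in MII of batch A. In batch B it was -0.488 in GV and -0.184 in MI. With the sum less Cyp19a1 r of Paip2 was 0.486, 0.0735, -0.0957 and 0.212 in the same order of groups.

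In batch B Paip2 had 84.0, 104 and 155 CPM in GV and 54.9, 88.8 and 126 CPM in MI. Of the 15 MI oocytes 5 lay below every GV oocyte and the rest overlapped with them. The log2 fold change was -0.23 (unadjusted p 0.0653, adjusted p 0.491). The change at MII minus the change at MI was -0.37 (SE 0.215, adjusted p 0.385).

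Paip2b, on chromosome 6 (83805401 to 83831741, minus strand), had 271, 411 and 444 CPM in GV and 417, 515 and 623 CPM in MII of batch A. In CPM 5 of 6 MII oocytes lay above every GV oocyte, and the lowest, oocyte 6, lay among the higher GV oocytes; in TPM 0 of 6 did so, with 262 to 709 TPM in GV and 379 to 562 TPM in MII. The log2 fold change was 0.46 with TMM scaling (SE 0.151, adjusted p 0.0390) and -0.28 with spike-in scaling (adjusted p 0.356). The TMM value did not pass the test without GV oocyte 4 (adjusted p 0.0851), GV oocyte 5 (0.0814), MII oocyte 1 (0.0836), MII oocyte 2 (0.0522), MII oocyte 4 (0.0719) or MII oocyte 5 (0.0822), while the log2 fold change stayed between 0.38 and 0.52. It was 0.26 with the cumulus and granulosa sum as a covariate (adjusted p 0.477).

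In batch B Paip2b had 251, 401 and 418 CPM in GV and 239, 377 and 525 CPM in MI. The MI oocytes spread to both sides of the GV range, and the log2 fold change was 0.04 with RSEM counts and -0.02 with HTSeq counts (adjusted p 0.954 and 0.988). For Paip2b the change at MII minus the change at MI was 0.49 (SE 0.199, p 0.0183, adjusted p 0.163). Over the 7 genes, 0 passed that test of the difference between both changes with edgeR, beside 5.46% of 15083 genes, and 2 had an unadjusted p under 0.05; no other tool was run on it.

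The ratio of the inhibitor Paip2 to the coactivator Paip1, per length, had a median of 0.429 in GV and 0.178 in MII of batch A. It leaves out the other inhibitor, Paip2b, whose log2 fold change was 0.46 with TMM scaling and -0.28 with spike-in scaling. So it does not give the balance of both inhibitors with Paip1. Its denominator includes Paip1-208, a form of 621 bases with 31.7% of Paip1 counts in GV of batch A. The mean log2 ratio differed by -0.99 (6 and 6 oocytes, two-sided exact permutation test, p 0.00866), and 3 of 6 MII oocytes lay below every GV oocyte, so the groups overlapped. Without MII oocyte 1 the difference was -0.96 (exact permutation p 0.0173). In batch B the median ratio was 0.0651 in GV and 0.0529 in MI, with 7 of 15 MI oocytes below every GV oocyte, and the difference of the mean log2 ratio was -0.33 (permutation test, p 0.119).

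In CPM, Paip2 and Paip2b had negative correlations from oocyte to oocyte, which were weak or near 0 in batch B when taken in TPM. After each value was taken relative to its group mean, which removes stage and batch, Pearson's r of log2 CPM over the 37 oocytes was -0.624 and Spearman's rho was -0.546; without the 2 oocytes farthest from the median of Paip2, r was -0.535. Within the groups r was -0.830 in GV and -0.839 in MII of batch A, -0.738 in GV of batch B and -0.468 in MI. With log2 TPM, chosen after seeing the data, r was -0.219 relative to group means, -0.735 in GV and -0.596 in MII of batch A, -0.00599 in GV of batch B and -0.0872 in MI. All 21 pairs of the 7 genes were computed, and 8 had 1 sign of r in all 4 groups in CPM, 5 of them negative, against 6 and 4 in TPM. A second such pair was Pabpn1l and Paip1, with r of -0.568 relative to group means and between -0.664 and -0.534 within groups in CPM; in TPM these were -0.423, and -0.758 in GV and -0.527 in MII of batch A, -0.719 in GV of batch B and -0.167 in MI. These values are descriptions over oocytes that share a batch, a stage and their scaling, and no p was computed.

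Among 5886 genes with a mean of at least 10 CPM in both batches, the genes most like each member were ranked by Pearson's r of log2 CPM over the 37 oocytes relative to batch means, which keeps the difference between stages. They were Lpcat1 (0.619) and Fam160a1 (0.595) for Pabpc1l, Aplp2 (0.755) and Fnbp1l (0.723) for Pabpc4, and Tbcc (0.743) and Yipf4 (0.722) for Pabpn1l. For Paip1 they were Cd55 (0.799) and Ubxn2a (0.780), for Paip2 Cyb5a (0.889) and Vkorc1 (0.868), and for Paip2b Hnrnpr (0.852) and Stard13 (0.841). Pabpc1 fell below that level. The values within a batch differed for some: Yipf4 had r of 0.314 in batch A and 0.779 in batch B with Pabpn1l, while Cyb5a had 0.944 and 0.833 with Paip2. Relative to group means, which removes stage, Cyb5a had 0.842 with Paip2 and Lpcat1 0.620 with Pabpc1l, and in TPM 0.798 and 0.547; these were computed after the data were seen, and the ranking was not repeated on them.

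Of the 39 transcripts of the 7 genes, 23 passed the filter in batch A and 24 in batch B. In batch A 4 of 23 differed between GV and MII, beside 9.3% of 22461 transcripts: Pabpc1-201 (log2 fold change -1.72, adjusted p 0.0293), Paip2-201 (-0.70, 0.0325), Pabpc4-204 (0.52, 0.0411) and Paip2b-201 (0.53, 0.0472). Without MII oocyte 1, 0 of these 4 passed, with log2 fold changes of -1.63, -0.62, 0.55 and 0.48 and adjusted p of 0.0666, 0.0748, 0.0598 and 0.102 in that order. Pabpc4-204 and Paip2b-201 also failed with no filter on low counts (adjusted p 0.262 and 0.160) and with DESeq2 (0.0851 and 0.111), and Paip2-201 failed with DESeq2 (0.0557), while Pabpc1-201 passed both; 8 of the 23 had an unadjusted p under 0.05 with all oocytes. In batch B 0 of 24 differed with edgeR, beside 0% of 22717 transcripts, and 3 had an unadjusted p under 0.05.

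For 5 genes 1 transcript held most of the counts. In GV oocytes of batch A the mean share was 92.6% ± 6.07 (SD, n = 6) for Pabpc1-201, 98.6% ± 1.46 (SD, n = 6) for Pabpn1l-201 and 73.1% ± 7.87 (SD, n = 6) for Paip2b-201, and Paip2 is listed with 1 transcript. Pabpc1l-201 held 67.9% ± 9.49 (SD, n = 6) in GV and 69.6% ± 5.70 (SD, n = 6) in MII. Most of the rest of Pabpc1l was Pabpc1l-202, annotated as a processed transcript of 750 bases.

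Paip1 was divided among several transcripts. In GV of batch A Paip1-208 held 31.7%, Paip1-201 23.5%, Paip1-203 18.8% and Paip1-206 13.6% of its counts, and in MII Paip1-206 held 20.2%. In GV of batch B Paip1-206 held 39.8% and Paip1-201 7.32%. Paip1-206 and Paip1-208 are annotated without a 3′ UTR, at 1233 and 621 bases, so the TPM of Paip1 rests in part on short annotated forms.

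The test of transcript usage asks whether the division of a gene's counts among its transcripts changed. In batch A it could be applied to 4 of the 7 genes, of which 1 passed, Pabpc4 (gene-level adjusted p 0.0312), beside 5.29% of 5477 genes. Within Pabpc4 the transcript Pabpc4-204 gained, with a log2 usage change of 0.46 (adjusted p 0.0134). Without MII oocyte 1 the gene-level adjusted p was 0.0728, past the threshold no longer, while the usage change of Pabpc4-204 was 0.46 (adjusted p 0.0330) and still passed. In simulated counts the gene-level test called unchanged genes more often than its threshold allows, and the transcript-level test was not simulated. In batch B 0 of 5 genes passed in edgeR, beside 0% of 5535 genes; Paip1 and Paip2b had an unadjusted p under 0.05 (0.0405 and 0.0486).

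The share of Pabpc4-204 among the counts of Pabpc4 was 23.7, 31.0 and 35.6% in GV and 41.1, 46.9 and 53.1% in MII of batch A as lowest, median and highest. No MII oocyte overlapped with the GV oocytes, MII oocyte 1 included at 46.3%. The means were 30.3% ± 4.96 (SD, n = 6) and 47.5% ± 4.40 (SD, n = 6). In the same oocytes the mean share of Pabpc4-202 was 33.0% and 25.5%, and that of Pabpc4-201 was 12.0% and 5.88%.

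Batch B did not show that separation. There Pabpc4-204 held 27.2% ± 17.1 (SD, n = 10) in GV and 23.1% ± 14.0 (SD, n = 15) in MI, with single GV oocytes from 4.37 to 56.9% and single MI oocytes from 1.25 to 42.3%. Each stage of batch B alone spanned a wider range than both stages of batch A together.

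**Figure D3:**
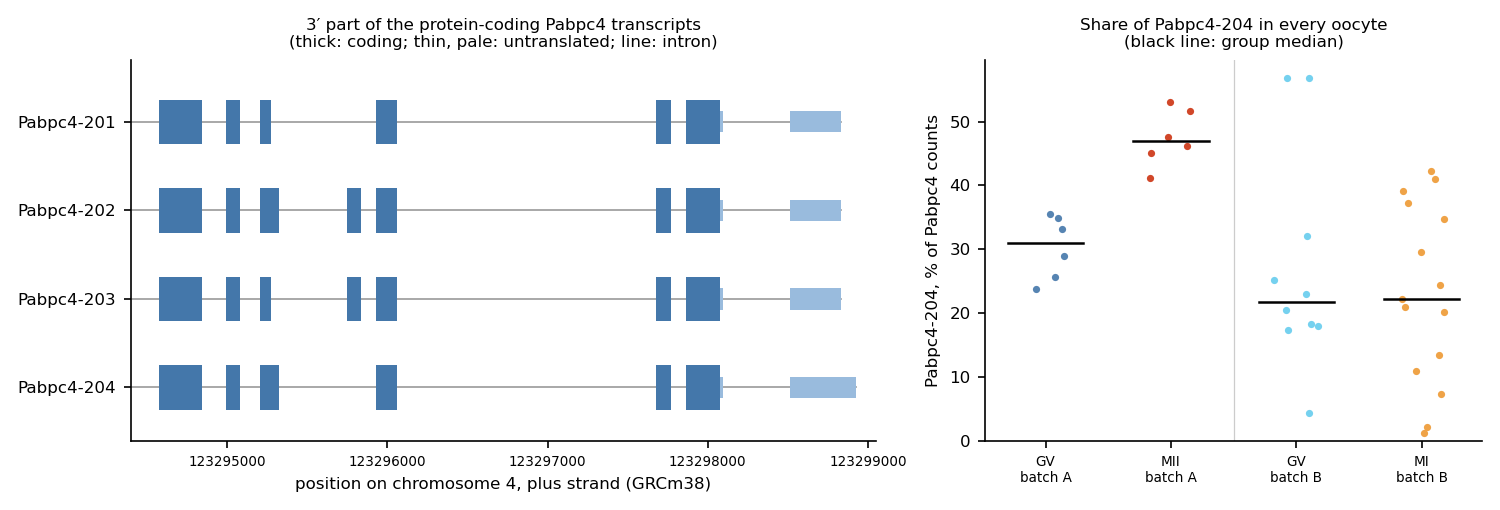
Left, exons of the 4 protein-coding Pabpc4 transcripts toward their 3′ end (horizontal axis, position on chromosome 4 in GRCm38; thick, coding; thin, untranslated; line, intron); right, Pabpc4-204 as a percentage of Pabpc4 counts in each oocyte (points) by stage and batch, with medians as black lines. The MII oocytes of batch A (41.1 to 53.1%) lie above its GV oocytes (23.7 to 35.6%), while in batch B the stages overlap.

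Pabpc4-204 is annotated to end at position 123298925 of chromosome 4, plus strand, 93 bases beyond position 123298832, where 3 of the 4 protein-coding transcripts end. It also lacks an exon of 87 bases (123295750 to 123295836) that Pabpc4-202 has and Pabpc4-201 lacks, and its start lies 86 bases from that of Pabpc4-202. The counts therefore do not say whether the end, the exon or the start gained. Its annotated 3′ UTR has 425 bases and that of Pabpc4-202 has 332.

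A second measure weights the annotated 3′ UTR length of a gene's protein-coding transcripts by their counts. For Pabpc4 it was 357, 368 and 372 bases in GV and 381, 383 and 391 bases in MII of batch A as lowest, median and highest, without overlap. The log2 change was 0.07 (limma, SE 0.0111, adjusted p 0.00497), and 0.07 without MII oocyte 1 (adjusted p 0.0128). Of the 4 genes this could be computed for, 1 passed, beside 3.98% of 5659 genes, among which 196 became longer and 29 shorter. In batch B 0 of 4 passed in limma, beside 0.0281% of 3563 genes; Paip1 had an unadjusted p of 0.0272 and Pabpc4 a log2 change of -0.02 (adjusted p 0.966). This uses the same counts as the usage test and is not independent of it.

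The annotated ends of Pabpc4-202 and Pabpc4-204 each carry a polyadenylation hexamer. Their last 30 bases are shown 5′ to 3′ because the end is one of the annotated differences between both transcripts; capitals mark AATAAA, at chr4:123298803-123298832 and chr4:123298896-123298925 of GRCm38, plus strand, from the GENCODE transcript sequences.
Pabpc4-202: ggaAATAAAatctccataaatatggctgaa
Pabpc4-204: taAATAAAtttactttcccttttggttttt
The hexamer ends 21 and 22 bases before the annotated end. A cytoplasmic polyadenylation element, searched on the transcript strand as TTTTAT or TTTTAAT, occurred 1 time in the 3′ UTR of Pabpc4-204, within its last 100 bases, and 0 times in that of Pabpc4-202.

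The same search was made on the most abundant protein-coding transcript with a 3′ UTR of 6 of the genes, Paip2 not included. AATAAA occurred in the last 30 bases of 4 of them, and ATTAAA in those of the other 2, Pabpc1l and Pabpn1l. Of 43650 protein-coding transcripts, 47% had AATAAA and 12.7% had ATTAAA there. In Paip1-203 the AATAAA ends 1 base before the annotated end, against 12 to 21 bases for the hexamers of the other genes. The cytoplasmic polyadenylation element occurred in the 3′ UTR of 3 of 6 (49.4% of all) and in the last 100 bases of 1 of 6, Paip1-203 (16.1% of all). The last 30 bases of both oocyte-type genes, which differ from the rest in their hexamer, are shown beside those of Pabpc1, with either hexamer in capitals (chr2:164050509-164050538, plus strand; chr8:122619471-122619500 and chr15:36595661-36595690, minus strand).
Pabpc1l-201: ctttatatATTAAAaaatgctgcaaaaatc
Pabpn1l-201: aatgtaaattATTAAActtgaatatatttt
Pabpc1-201: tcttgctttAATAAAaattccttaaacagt
A match is a description of the annotated sequence and says nothing of use in these oocytes.

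Reads of near-identical copies can be assigned to the wrong gene. At 90% identity or more over at least 300 aligned bases, Pabpc4 had 12 such copies, Pabpc1 had 2, Paip2b had 1 and the other 4 genes had 0. The copies of Pabpc1 and Paip2b held on average under 1 expected count per oocyte (0.453 and 0.259). Of the copies of Pabpc4, Gm10110, a transcribed processed pseudogene with 98.75% identity over 3040 bases, held a mean of 31.6 expected counts in GV and 23.1 in MII of batch A, and 127 in GV and 143 in MI of batch B. All 12 copies together held 2.26% and 2.23% of the summed counts of Pabpc4 and its copies in GV and MII of batch A, and 6.94% and 7.55% in GV and MI of batch B. These percentages are the division that RSEM made over all 12 copies. How many reads it gave to the wrong gene was not tested.

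The rest of the machinery was read from lists of related genes. Of 6 other poly(A)-binding protein genes 2 could be tested, Pabpn1 and Zc3h14, and 0 passed in batch A, with a median log2 fold change of 0.44; Pabpc2, Pabpc4l, Pabpc5 and Pabpc6 had means of at most 0.504 CPM in all groups. Of 16 genes for known partners of cytoplasmic poly(A)-binding proteins, 4 were higher in MII and 1 was lower, beside 9.06% and 11.5% of all genes tested, with a median log2 fold change of 0.09; these counts are small and no test was made of a list. By smallest adjusted p the higher ones were led by Pan3, which recruits the Pan2 deadenylase to the tail (0.63, adjusted p 0.00336), Atxn2 (0.72, 0.00459) and Larp4 (0.47, 0.0183), and the lower one was Tob1, an adaptor of the deadenylase complex (-0.86, 0.0254).

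A further list held genes of the cap-binding complex, their relatives and its regulators. Of its 14 genes tested 1 was higher in MII, Eif4g2, a relative of eIF4G (0.44, adjusted p 0.0161). Another 1 was lower, Eif4h (-0.54, 0.0424), beside the same 9.06% and 11.5%, with a median of 0.06. Of 8 poly(A) polymerase genes tested, 0 were higher and 1 was lower, Papolg (-0.57, 0.00929), beside the same percentages, with a median of 0.25. In batch B 0 genes of each of these lists passed in edgeR, and the medians were 0.15 for other poly(A)-binding proteins, 0.10 for partners, 0.05 for the cap-binding complex and 0.07 for polymerases. Under spike-in scaling the median of all genes lies at -0.72, so the higher genes of these lists are higher relative to other transcripts.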

How the data were processed

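The authors trimmed reads with Trim Galore 0.6.4 and deposited expected counts per gene and transcript from RSEM 1.3.1 (mm10, GENCODE M20) and counts per gene from HTSeq 0.12.4 after STAR 2.7.6a, per the submitters' processing notes; strandedness and overlap mode are not stated. Names, lengths and ends came from GENCODE M21 (GRCm38), which held 54723 of 54752 genes and 138789 of 138835 transcripts. Expected counts were rounded, filtered with filterByExpr, TMM-normalised and tested within batch with edgeR 4.0.16 (quasi-likelihood; diffSpliceDGE for usage), Benjamini-Hochberg adjusted over all features tested. Weighted 3′ UTR length needed 10 counts in every oocyte and used limma 3.58.1. DESeq2 1.42.0 was an alternative, with R 4.3.3, Python 3.11.15, scipy 1.17.1 (ratios; 100000 resamples in batch B) and blastn 2.17.0+ (copies). TPM used transcript counts and annotated lengths. The fits were tested on simulated data, where the usage test called unchanged genes more often than its threshold. Alternatives were no filter, DESeq2, RLE, spike-in scaling, HTSeq counts, a replicate block and leaving out oocytes. Named genes were all 7 members, the 2 most correlated genes per member and all 6 other poly(A)-binding protein genes. From the other lists of related genes up to 3 per direction were named by adjusted p. The oocyte, cumulus and granulosa, and blood and immune genes named passed a test, led in abundance or were at 0 in batch B. Of the near-identical copies, that with the most counts was named. Members and lists were chosen with earlier results of these data known. Reads, proteins and splicing outside these tables were not analysed here.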

Additional observations from a re-analysis of the deposited data

Results flagged for a closer look

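Within each group of 6 or 10 oocytes, the highest or lowest level of each gene was compared with its nearest neighbour by Dixon's test; the 15 MI oocytes were too many for it. The same was done for both log2 ratios and for the share of Pabpc4-204. In 5 of the 30 sets tested 1 oocyte lay far from the others. For independent, normally distributed values about 1 in 20 sets would be flagged. The CPM were taken without a logarithm, and several flags, including that of a ratio, are of the same oocyte. The count is therefore not to be read as an excess. Pabpc4 in MII oocyte 4 of batch A had 183 CPM, the next oocyte 145 CPM. Pabpc1 in GV oocyte 10 of batch B had 28.7 CPM, the next 14.2 CPM. GV oocyte 7 of batch B had 440 CPM of Pabpn1l, the next 143 CPM, and 155 CPM of Paip2, the next 111 CPM; in TPM its Paip2 was 143, beside a group median of 144. Its log2 ratio of Paip2 to Paip1 was -2.97, the next -3.58.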

How the results depend on the processing

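In batch A the fall of Pabpc1 and that of Paip2 kept their direction in all 20 alternatives and stayed past the threshold in 18. The exceptions have the cumulus and granulosa sum as a covariate: -0.87 (adjusted p 0.287) for Pabpc1, -0.28 (0.486) for Paip2 and 0.26 (0.477) for Paip2b, with 593 genes significant and 375 called, and without Cyp19a1 in the sum -0.44 (0.699), -0.45 (0.421) and 0.41 (0.363), with 557 and 494 genes. In both, 0 members were significant and 0 called. Pabpc1l, Pabpn1l and Paip1 moved away from 0 in both fits, to -0.72, -0.30 and 0.46 with the whole sum. Without Cyp19a1 in the sum they were -0.60, -0.35 and 0.68. The sum was lower in MII, so these fits cannot separate it from stage. Leaving out each of the 12 oocytes in turn gave -1.86 to -1.37 for Pabpc1 and -0.77 to -0.59 for Paip2, 0.38 to 0.52 for Paip2b (6 of 12 past the threshold), -0.15 to 0.088 for Pabpn1l, which turned direction in 6 of 12, -0.53 to -0.19 for Pabpc1l, -0.20 to -0.08 for Pabpc4 and 0.16 to 0.42 for Paip1; 2 to 3 members and 1993 to 2575 genes were significant.

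Paip2b was not past the threshold with no filter (0.42, adjusted p 0.133) or with HTSeq counts (0.45, 0.0701). Spike-in scaling, whose median of all genes is -0.72, gave -1.0 for Pabpc1l, -0.86 for Pabpc4 and -0.70 for Pabpn1l, now past the threshold, and reversed Paip1 (-0.50) and Paip2b (-0.28); 5 members were significant and 3 called, with 5596 genes significant and 3919 called. With no filter 1859 genes were called. With no filter and with DESeq2, which test more genes of low count, the median of all genes was 0.27 and 0.32.

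The replicate block assumes that GV and later oocytes of the same number form a pair. They share only that number: paired oocytes had correlations of -0.523 to 0.459 in batch A (2 of 6 over 0.1) and -0.339 to 0.259 in batch B (2 of 10), so pairing is not shown. With it, 1587 genes were significant in batch A and 0 in batch B, Paip2b was 0.47 (adjusted p 0.111), and in batch B Pabpc1 was 0.076 and Paip1 -0.0094, both reversed.

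In batch B 0 members were significant in all 9 alternatives. The number of significant genes was 44 with no filter, 224 with DESeq2, 0 with HTSeq counts, 39 without MI oocytes 4, 8 and 9, 0 with HTSeq counts without these, 24 without MI oocyte 15 and 7 without GV oocyte 7. Paip2b reversed with HTSeq counts (-0.021) and without GV oocyte 7 (-0.014), and was 0.042 without MI oocyte 15. Paip1 was 0.013 without MI oocyte 15, and Pabpc4 was 0.053 without GV oocyte 7.

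For the change at MII minus that at MI, 0 members passed in all 5 alternatives. The number of significant genes was 1600 with no filter, 319 with HTSeq counts, 512 without MII oocyte 1, 536 without MII oocyte 1 and MI oocytes 4, 8, 9 and 15, and 380 with HTSeq counts without MI oocytes 4, 8 and 9. Pabpc1l reversed with HTSeq counts (0.068) and in the last 2 of these (0.041 and 0.11).

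Of member transcripts in batch A, 2 were significant with no filter, 1 with DESeq2 and 0 without MII oocyte 1. Over these 3 alternatives 1461 to 2807 of all transcripts were significant, against 2089 in the main fit. In batch B with no filter 2 of all transcripts, and 0 of the members', were significant and Paip2b-201 reversed (-0.030). Without MII oocyte 1, 0 members had changed usage at gene level, beside 255 of all genes, against 290 with all oocytes. Pabpc4-204 itself still passed (0.46, adjusted p 0.0330). With a minimum of 30 counts, 0 genes of batch B had a changed 3′ UTR length. The Pabpc1l to Pabpc1 ratio of batch A was 1.25 with HTSeq counts (exact permutation p 0.0736) and 1.09 without MII oocyte 1 (0.0779). In TPM the group-centred r of Paip2 with Paip2b was -0.219, not -0.624, and that of Pabpn1l with Paip1 -0.423, not -0.568. The fits without GV oocyte 7, those without MII oocyte 1 together with MI oocytes, the HTSeq fit of the difference without MI oocytes 4, 8 and 9, the 3′ UTR length and the listed genes without MII oocyte 1, the covariate fits and the correlations in TPM were chosen after seeing the data. Member transcripts lost with no filter were Pabpc4-204 and Paip2b-201, and with DESeq2 these and Paip2-201. Leaving out oocytes lowers the number compared; for the other changes the cause was not tested.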

Other observations

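A pair of oocytes of batch B, of different stages, stood at the ends of their groups in the same 5 genes in CPM; in TPM both did so only in Pabpn1l. GV oocyte 7 was the highest of its 10 oocytes in Pabpn1l (440 CPM) and Paip2 (155 CPM) and the lowest in Pabpc4 (98.3 CPM), Paip1 (912 CPM) and Paip2b (251 CPM). MI oocyte 5 was likewise the highest of its 15 oocytes in Pabpn1l (143 CPM) and Paip2 (126 CPM) and the lowest in Pabpc4 (97.1 CPM), Paip1 (740 CPM) and Paip2b (239 CPM). In TPM GV oocyte 7 was still the highest in Pabpn1l (521) and the lowest in Pabpc4 (71.5), Paip1 (1117) and Paip2b (217), but not at an end in Paip2 (143). MI oocyte 5 was the highest in Pabpn1l (261) and Paip2 (178), but not the lowest in Pabpc4 (94.9), Paip1 (1467) or Paip2b (348). This was noticed after the values were seen and was not tested. In batch A, GV oocyte 5 and MII oocyte 5 were also at an end of their group in 5 of the 7 genes in CPM, with different genes high and low. Without GV oocyte 7 of batch B the group-centred r of Paip2 with Paip2b was -0.574 in CPM and -0.235 in TPM.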
